A study of Mus musculus with 44 samples.

Results

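The control immunoprecipitate from the synaptosome fraction (PeMP_TRAP, replicates A to C) was compared with total RNA of the same fraction (SN_input, replicates A to C), which is 6 of the 44 libraries of the study. The libraries were chosen by their titles alone, with 3 libraries in each group. All 6 were made from the dorsal cortex and hippocampus of mice killed on postnatal day 28 or 29 and labelled CX3CR1-CreERT2 (+/-) x RPL10a-GFP flox (+/-), whereas the series design writes fl/fl. The controls are labelled as given vehicle at postnatal days 15, 17 and 19, when the other mice received tamoxifen at 100 mg per kg, whereas the series design calls them untreated. The same 4 fractions were made from tamoxifen mice (replicates D to F): the synaptosome pair, and the homogenate (Input) with its own immunoprecipitate (MG_TRAP). Those libraries serve here as comparison only. The Cx3cr1 promoter drives the recombinase in these mice, so the tag can appear only in cells that use that promoter, microglia and other macrophages included. How many animals, and of which sex, went into a library is not given in the sources used here. The p-values therefore measure the spread between libraries, which may be technical. For the tests of single genes that spread was estimated over all 24 libraries of the 4 fractions, control and tamoxifen.

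Translating ribosome affinity purification uses a ribosomal protein fused to GFP: antibodies against GFP pull tagged ribosomes, with the RNA they carry, out of a lysate. Without tamoxifen the recombinase should stay outside the nucleus and the tagged protein should not be made, so RNA in the pull-down is called its background. A synaptosome fraction holds pinched-off nerve endings with attached glial processes and myelin fragments. The comparison asks which RNA the pull-down holds without tamoxifen, relative to what it was offered.

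The immunoprecipitates were shallower on the mean, with overlap in depth, and held fewer kinds of RNA than the input. PeMP_TRAP A, B and C had 2050242, 1135747 and 4069563 reads assigned to genes, and SN_input A, B and C had 6479979, 3922657 and 9664824. After every library was thinned to 1135747 reads, 9421, 10488 and 7025 genes had a read in PeMP_TRAP against 11972, 13287 and 12811 in SN_input. The means were 8978 ± 1773 and 12690 ± 666 genes (SD, n = 3 each), and the groups did not overlap (exact permutation test, two-sided, p = 0.1, the smallest that 3 against 3 allows). PeMP_TRAP C was the deepest of its group and had the fewest genes. Of the 14832 genes tested, 34.8% to 41.3% had a count of 0 in a PeMP_TRAP library and 11.6% to 15.8% in an SN_input library. In the smallest library a count of 0 still allows 2.64 CPM (counts scaled to a common library total), which is 3 counts and covers counting error only. Replicates of PeMP_TRAP correlated less with each other across genes (Pearson's r of log2 CPM 0.413 to 0.542) than those of SN_input (0.742 to 0.761). Genes are not independent replicates, and these correlations describe the libraries. The common dispersion, edgeR's estimate of the squared relative spread between replicates, was 3.66 in PeMP_TRAP and 1.115 in SN_input.

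The 3 immunoprecipitates also stood apart from each other, so values are given library by library. Xist, an RNA that stays on the inactive X chromosome in the nucleus, had 918, 335 and 0 counts in PeMP_TRAP A, B and C and 2, 0 and 1 in SN_input. Counts of 4 Y-linked genes were 0, 97 and 3 in PeMP_TRAP and 1, 53 and 346 in SN_input. In control Input these Y-linked genes had 0, 266 and 71 counts in A, B and C, and in control MG_TRAP 0, 15 and 674. Letter A thus had at most 1 such count in all 4 fractions, and B and C had some in each. Xist was near 0 in every SN_input library and cannot compare the letters there. Whether libraries of a shared letter came from the same tissue is not settled by these counts.

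No gene passed the test in this comparison: edgeR's quasi-likelihood test called 0 of 14832 genes, or 0.00%, at a Benjamini-Hochberg adjusted p under 0.05. The lowest adjusted p was 0.0656, for Acta2. At an unadjusted p under 0.05 there were 2585 genes (17.4%), of which 719 (4.85%) were higher and 1866 (12.6%) lower in the immunoprecipitate. These p-values use a spread shared by all 24 libraries. That spread can be too small for PeMP_TRAP, whose common dispersion of 3.66 was the largest, beside at most 2.38 in any other group. Fitted on the compared groups only, 1176 of 9553 genes were at an unadjusted p under 0.05, and the lowest adjusted p was 0.172. All 3 PeMP_TRAP libraries lay above all 3 SN_input libraries for 268 genes (1.81%) and below them for 2624 genes (17.7%). The median log2 fold change over all genes was -0.28, and 6487 genes were above 0. That median was 0.00 with DESeq2's size factor method (RLE) in place of TMM scaling and -0.61 with scaling by total counts. Other tools gave other counts: limma voom called 31 genes (6 or 0.0405% higher, 25 or 0.169% lower) and DESeq2 called 1161 (405 higher, 756 lower). Of the 31 genes of limma voom, 29 were also called by DESeq2 in the same direction. The 5 of these that were higher in the immunoprecipitate were Cd93, Cldn5 and Ly6a, which endothelium expresses, Rgs5 of pericytes, and Serhl. The 24 lower ones included Agt, Cldn10 and Slc7a10, which astrocytes express. These 8 names were chosen after their values were seen. The astrocyte list used below holds none of them, and both tools called 0 of its 16 genes.

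The genes of lowest p in each direction, among those of at least moderate level whose groups did not overlap, show the size of the differences that still failed the test. Levels of single genes are given as TMM-scaled CPM and summed levels of lists as CPM of assigned reads without that scaling, always in the order A, B and C, and all 10 genes had an adjusted p of 0.174. Vim, the intermediate filament vimentin of vessel wall cells and astrocytes, had 937, 188 and 274 CPM in PeMP_TRAP against 6.55, 1.79 and 7.2 in SN_input (log2 fold change 6.48 ± 1.76 SE). Cald1, the actin-binding protein caldesmon of smooth muscle, had 698, 657 and 46.7 against 7.59, 12.6 and 11.7 (5.46 ± 1.54). Flt1, a VEGF receptor of endothelium, had 969.5, 190.2 and 36.4 against 3.13, 0 and 2.88 (7.59 ± 2.20). All 3 genes were highest in library A, and in Cald1 and Flt1 library C was the lowest. The other genes of this direction were Yeats2, a reader subunit of a histone acetyltransferase complex, with 479, 49.5 and 96.6 against 0.32 to 7.48 CPM, and Akap8, a nuclear anchoring protein of protein kinase A, with 532, 87.3 and 125 against 1.79 to 10.1. In the other direction, Hspbp1, a co-chaperone of Hsp70, had 3.89, 3.91 and 1.88 CPM in PeMP_TRAP against 177, 68.8 and 93.5 in SN_input (-5.15 ± 1.27). Ssr4, a subunit of the translocon-associated complex of the endoplasmic reticulum, had 2.16, 16.9 and 0.941 against 61, 163 and 123 (-4.24 ± 1.16). Cnpy2, Pnpla8 and D17Wsu92e had log2 fold changes between -4.52 and -4.40. The immunoprecipitate was below every input for these genes in all 3 libraries, as the choice of genes requires.

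By class of RNA, most reads of the background were messenger RNA, as in the input, and only 1 of 16 classes had groups that did not overlap. Nuclear-encoded mRNA other than that of ribosomal proteins and histones made up 87.9%, 63.4% and 89.7% of assigned counts in PeMP_TRAP A, B and C. In SN_input the shares were 72.4%, 62.0% and 87.2%. The means of 80.3% ± 14.7 and 73.8% ± 12.7 (SD, n = 3) differed by less than the spread between libraries (exact permutation test, two-sided, p = 0.5). Library B was low in both groups. The library kit, SMART-Seq v4, primes on poly(A), so RNA without such a tail is read only in part, and these shares are shares of counts and not of molecules.

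**Figure D1:**
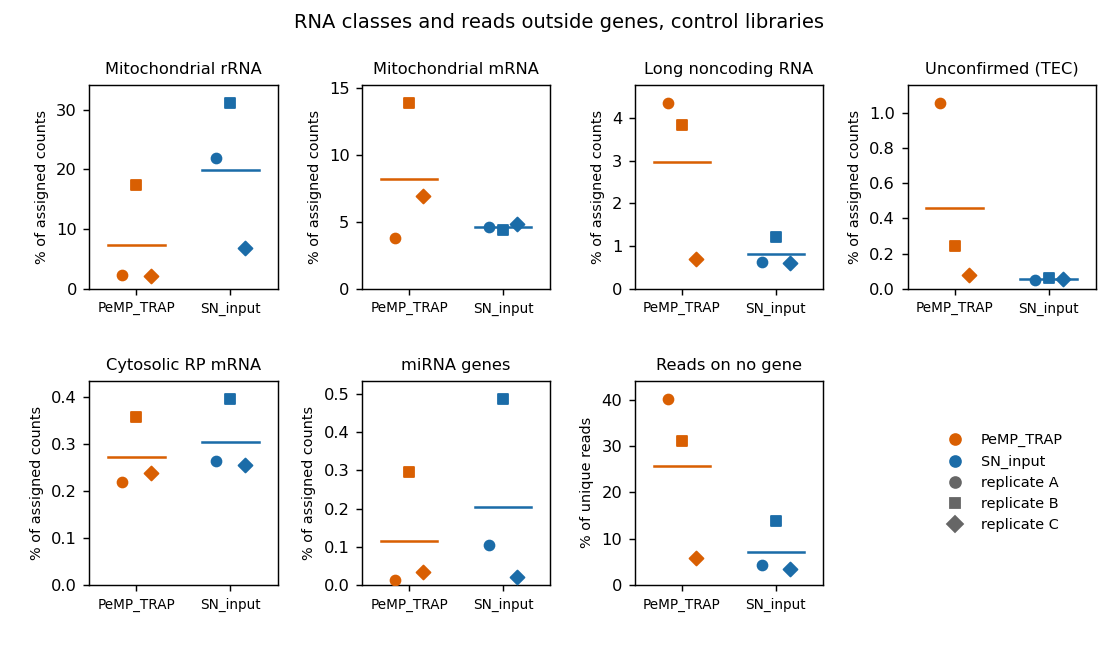
Share of assigned counts by RNA class (6 panels) and share of unique reads on no gene feature (1 panel), in percent on linear axes from 0, for the 3 control PeMP_TRAP libraries (orange) and the 3 control SN_input libraries (blue); circle, square and diamond are replicates A, B and C, and bars mark group means. TEC transcripts lie higher in every PeMP_TRAP library, at 0.0780% to 1.05% against 0.0491% to 0.0614%, while the other panels overlap.

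Mitochondrial RNA split into a ribosomal and a messenger part that differed in opposite ways without reaching the exact test's smallest p. The 2 mitochondrial ribosomal RNAs held 2.36%, 17.4% and 2.20% of counts in PeMP_TRAP and 21.8%, 31.1% and 6.87% in SN_input (p = 0.2, exact permutation test, two-sided). Mitochondrial mRNA, which codes for respiratory chain subunits, held 3.78%, 13.9% and 6.96% in PeMP_TRAP and 4.61%, 4.40% and 4.84% in SN_input (p = 0.4, exact permutation test, two-sided). The input libraries were thus close to each other in mitochondrial mRNA, and the immunoprecipitates reached both below and above them. The gene mt-Rnr2, the large ribosomal RNA, had 13941, 189990 and 21043 CPM in PeMP_TRAP and 179090, 333720 and 47545 in SN_input. For mt-Cytb, the cytochrome b subunit of complex III, the values were 9420, 53680 and 22045 against 11308, 9992 and 10895. For mt-Nd1, a subunit of complex I, they were 6533, 51584 and 24582 against 8134, 9808 and 7177. Libraries B and C were high and A was low for both messengers. Of 37 mitochondrially encoded genes 20 were tested, 16 had a log2 fold change above 0, and their median was 0.91 beside -0.28 over all genes. Of these 20, only mt-Nd4 reached an unadjusted p under 0.05 (6525, 50471 and 15620.0 CPM against 5376, 8760.2 and 3963, adjusted p = 0.275), beside 4.85% of all genes that were higher at that p. The 5 messengers mt-Atp6, mt-Atp8, mt-Co2, mt-Co3 and mt-Nd4l were listed at or near 0 in all 6 libraries. They have near-identical copies in the nuclear genome, so their counts are uncertain.

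Long noncoding RNA took 4.35%, 3.84% and 0.695% of counts in PeMP_TRAP and 0.621%, 1.22% and 0.604% in SN_input (p = 0.2, exact permutation test, two-sided). Libraries A and B were above every input library and C was within their range. Of 901 long noncoding genes tested, 69 were higher and 63 lower at an unadjusted p under 0.05, where 4.85% of all genes were higher and 12.6% lower, and their median log2 fold change was -1.47, so most members did not follow the summed share. The annotation class TEC, transcripts that still need experimental proof, held 1.05%, 0.245% and 0.0780% of counts in PeMP_TRAP against 0.0491%, 0.0614% and 0.0569% in SN_input (p = 0.1, exact permutation test, two-sided, 0.889 after Benjamini-Hochberg adjustment over the 16 classes). Of 201 such transcripts tested, 47 were higher and 7 lower at an unadjusted p under 0.05, beside the same 4.85% and 12.6% of all genes. The most abundant was 9330162G02Rik, at 629.5, 41.7 and 0.627 CPM in PeMP_TRAP and 9.67, 29 and 12.6 in SN_input. Next came 5330406M23Rik, at 345, 139 and 0 CPM against at most 0.0799, and Gm43359, at 328 CPM in PeMP_TRAP A and 0 in the 5 other libraries. These named TEC transcripts were thus carried by 1 or 2 immunoprecipitates. Of the 201 tested, 4 were above all inputs in every immunoprecipitate and 13 below, beside 1.81% and 17.7% of all genes.

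Reads that fell outside every annotated feature moved in the same direction. They made up 40.1%, 31.1% and 5.79% of uniquely aligned reads in PeMP_TRAP and 4.37%, 13.8% and 3.48% in SN_input (means 25.7% ± 17.8 and 7.22% ± 5.73, exact permutation test, two-sided, p = 0.2). Reads that did not align made up 13.4%, 47.7% and 6.72% of all reads in PeMP_TRAP and 4.40%, 20.5% and 11.3% in SN_input. The part of unannotated reads in the differences between gene groups was not tested.

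Small RNA classes were minor and uneven. Genes annotated as miRNA held 0.0141%, 0.297% and 0.0352% of counts in PeMP_TRAP and 0.104%, 0.486% and 0.0206% in SN_input. The 2 genes Mir6236 and Gm23935 accounted for 86 of 289, 3345 of 3368 and 1402 of 1433 of these counts in PeMP_TRAP A, B and C, and for 95.7% to 99.5% of them in SN_input. The mature product of Mir6236 is shown because it is 1 of these 2 loci, and capitals mark the seed, bases 2 to 8, by which a miRNA recognises its targets:
mmu-miR-6236: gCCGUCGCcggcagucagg
The sequence of 19 bases is that of RefSeq, at chr9:110281353-110281371 of GRCm38.p6, plus strand, and the counted gene spans chr9:110281287-110281409. Mir6236 had 8.22, 1264 and 215 CPM in PeMP_TRAP and 893, 1667 and 105 in SN_input, and Gm23935 had 29, 3094 and 225 against 94.4, 4011 and 47. Library B was the highest for both genes in either group. Poly(A)-primed libraries of long RNA do not measure mature miRNA, so these counts say how many reads fell on the loci. Nuclear ribosomal RNA genes held 0.00180%, 0.136% and 0.00125% in PeMP_TRAP and 0.0103%, 0.0430% and 0.00722% in SN_input. Small nuclear RNA reached 0.00819% in PeMP_TRAP A and at most 0.000264% in the 5 other libraries, and small nucleolar RNA reached 0.0114% in the same library and at most 0.00172% elsewhere.

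Messenger RNA of cytosolic ribosomal proteins, which build the ribosomes that the method captures, overlapped the input. It made up 0.219%, 0.359% and 0.239% of counts in PeMP_TRAP and 0.263%, 0.396% and 0.256% in SN_input (p = 0.5, exact permutation test, two-sided). Of 81 tested genes of 85 listed, 2 were higher and 4 lower at an unadjusted p under 0.05, where 4.85% and 12.6% of all genes were. The median log2 fold change was 0.01, beside -0.28 over all genes. Many of these genes have processed pseudogenes, so reads that fit both are lost from the counts. That holds for Rpl10a itself, the gene behind the tag, which had 0 counts in all 3 PeMP_TRAP libraries and 1.19, 0 and 4.16 CPM in SN_input and therefore checks nothing. The counts hold no GFP feature.

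Of the 12 transcripts listed as retained in the nucleus, 10 had a log2 fold change above 0 and 8 were higher at an unadjusted p under 0.05, where 4.85% of all genes were. Of the 12 members 1 was lower at that p, beside 12.6% of all genes. Their median log2 fold change was 3.72, beside -0.28 over all genes. None passed edgeR's adjusted threshold or that of limma voom, under which 2 members were at an unadjusted p under 0.05 and the median was 1.77, beside -0.93 over all genes. DESeq2 called 8 of the 12 higher, where it called 2.73% of all tested genes higher. The list's summed level was 29962, 24687 and 745 CPM in PeMP_TRAP and 1060, 2526 and 1465 in SN_input. Libraries A and B were above every input library, and C was below all of them.

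**Figure D2:**
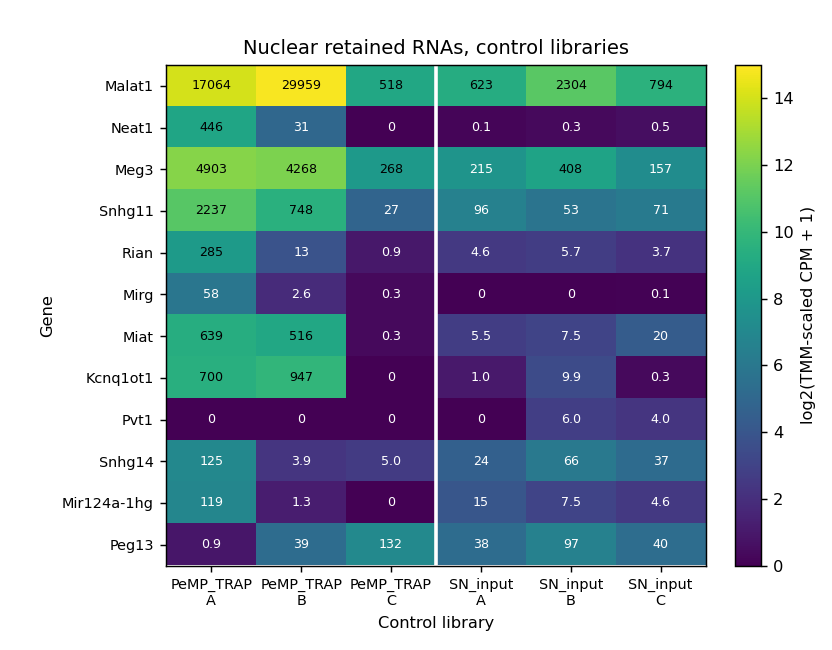
Level of the 12 transcripts listed as retained in the nucleus (colour, log2 of TMM-scaled CPM + 1) in each control PeMP_TRAP and SN_input library, replicates A to C; the number in each cell is the CPM. PeMP_TRAP A and B are bright for Malat1, Meg3 and Snhg11, while PeMP_TRAP C has 518 CPM of Malat1, below every input.

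Malat1, a noncoding RNA of nuclear speckles, had 17064, 29959 and 518 CPM in PeMP_TRAP and 623, 2304 and 794 in SN_input (log2 fold change 3.68 ± 1.17 SE, adjusted p = 0.18). Meg3, a noncoding RNA of the imprinted Dlk1-Dio3 region, had 4903, 4268 and 268 CPM against 215, 408 and 157 (3.60 ± 0.95, adjusted p = 0.174). Library C was below every input for Malat1 and between the inputs for Meg3, so the groups overlapped. Rian and Mirg, transcribed from the same imprinted region as Meg3, were highest in library A. Mirg was the only member whose groups did not overlap, at 57.5, 2.61 and 0.314 CPM against at most 0.0799. Of all genes 1.81% were above the inputs in this way. Snhg11, a host gene of small nucleolar RNA in neurons, had 2237, 748 and 27 CPM against 96, 52.9 and 71.3 (3.77 ± 1.15, adjusted p = 0.174). Miat had 639, 516 and 0.314 CPM against 5.51, 7.48 and 19.5. Kcnq1ot1, an antisense RNA of an imprinted domain, had 699.6, 947 and 0 CPM against 1.04, 9.87 and 0.32, and reads of the gene it overlaps cannot be told apart without strand. Neat1, the scaffold of paraspeckles, had 446, 31.3 and 0 CPM against 0.149, 0.299 and 0.48. In each of these 4 libraries A and B carried the level and C was below every input. Mir124a-1hg, the host gene of a neuronal miRNA, had 119, 1.3 and 0 CPM against 15.2, 7.48 and 4.64. Peg13 and Snhg14 had log2 fold changes of -0.02 and 0.09, and Pvt1, at 0 in all 3 immunoprecipitates, had at most 5.98 CPM in the input. Without library A there were 9 members above 0 and 5 at an unadjusted p under 0.05. Without library B these were 11 and 8, and without library C 10 and 8.

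Vessel transcripts formed the other group that was high in the background, and unlike nuclear RNA their summed level was above the inputs in all 3 immunoprecipitates. In library C the mural sum came from 2 of the 10 listed genes, Rgs5 and Vtn. The endothelium list summed to 2723, 909 and 652 CPM in PeMP_TRAP A, B and C and to 96.6, 66.0 and 108 in SN_input. The list of mural cells, the pericytes and smooth muscle cells around vessels, summed to 7077, 873 and 937 against 119, 82.3 and 154. The lowest immunoprecipitate was above the highest input for both lists. Several of these genes were at or near 0 in the inputs and passed the expression filter through the immunoprecipitates, which fixes their direction, so the counts over tested genes describe them and support nothing. Of 10 endothelial genes tested (of 13 listed), 10 had a log2 fold change above 0, 6 were higher at an unadjusted p under 0.05, and the groups of 7 did not overlap, where 1.81% of all genes were in that state. The median log2 fold change was 5.30. Of 6 mural genes tested (of 10 listed), 6 were above 0 and 5 were higher at an unadjusted p under 0.05. Of all genes 4.85% were higher at that p. Without the filter 12 of 13 endothelial and 8 of 10 mural genes were above 0, with medians of 4.22 and 5.05. The median of the tested mural genes was 5.43, or 4.56 when genes with no more than 3 counts in every input library were set to their lower bound. None passed edgeR's adjusted threshold. DESeq2 called Cldn5, Flt1, Ly6a, Pdgfrb and Rgs5 higher, and limma voom called Cldn5, Ly6a, Ly6c1 and Rgs5. Over all genes these tools called 2.73% and 0.0405% higher.

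Cldn5, the tight junction protein of the blood-brain barrier, had 206, 20.8 and 276 CPM in PeMP_TRAP and 0.149, 1.79 and 0 in SN_input (log2 fold change 8.11 ± 2.57 SE, adjusted p = 0.18). Ly6a, a surface protein of brain endothelium, had 67.9, 154 and 157 CPM against 3.27, 0.299 and 0 (6.70 ± 2.15, adjusted p = 0.185), and its relative Ly6c1 had 249.6, 181 and 77.2 against 7.74, 0 and 0 (6.02 ± 2.37, adjusted p = 0.222). These 3 genes were above the inputs in every immunoprecipitate. Slc2a1, the glucose transporter of the barrier, which astrocytes also express, had 152, 82.1 and 251 CPM against 33.3, 58 and 31.1. Slco1a4, an anion transporter, had 12.5, 160.2 and 31.7 CPM against 0, 0.299 and 10.8. Pecam1, an adhesion molecule between endothelial cells, had 287, 2.61 and 0.627 CPM against at most 0.0799, which is at least 108-fold higher on the mean of the group and 1.80-fold without library A. The groups of Slc2a1, Slco1a4 and Pecam1 did not overlap either. Abcb1a, an efflux pump, had 134, 146 and 0 CPM, Cdh5, the endothelial cadherin, had 159, 0 and 0.314, and Itm2a had 175, 82.1 and 1.25, and in each of them library C was at or below an input. Kdr, a VEGF receptor, was read in PeMP_TRAP B alone at 326 CPM and was not tested, and Tek and Emcn were near 0 in the immunoprecipitates.

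Among mural genes, Rgs5, a regulator of G protein signalling in pericytes, was the most even, at 656, 377 and 616 CPM in PeMP_TRAP against 40.6, 29 and 8.31 in SN_input (log2 fold change 4.40 ± 1.45 SE, adjusted p = 0.185). It was the only mural gene tested whose groups did not overlap, beside 1.81% of all genes that were higher without overlap. Pdgfrb, the PDGF receptor of pericytes, had 26.8, 705 and 0 CPM against 12.9, 10.2 and 4.64. Notch3, a receptor of vascular smooth muscle, had 403, 71.7 and 0 CPM against 0, 1.5 and 5.12. Both had 0 counts in library C. Vtn, vitronectin of pericytes, had 64, 97.7 and 579.6 CPM against 61.2, 53.8 and 101, so its groups overlapped (1.78 ± 1.39, adjusted p = 0.468). Acta2, smooth muscle actin, had 3395, 6.51 and 0 CPM against 0.149, 0.598 and 0.0799, and Myh11, smooth muscle myosin, had 1589, 3.91 and 0 against at most 0.0799, too few libraries to be tested. Tagln, another contractile protein, had 136 CPM in library A and 0 in the 5 others. Contractile genes of smooth muscle thus came from library A. Acta2 passed the threshold without library B (adjusted p = 0.0149) and without library C (0.00191, with Myh11 at 0.00216), and with total count scaling (0.0309), while no gene passed without library A. Without A the endothelial list had 10 of 11 tested members above 0, of which 4 were at an unadjusted p under 0.05, and the mural list 6 above 0 and 3. The log2 ratio of summed levels was 3.99 for endothelium and 4.64 for mural cells, and without A they were 3.11 and 2.93.

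Lists of other cells around and inside vessels overlapped the input. The list of fibroblasts summed to 663, 145 and 10.3 CPM in PeMP_TRAP and 231, 230 and 251 in SN_input, and its 7 tested genes had a median log2 fold change of -1.92, with 0 at an unadjusted p under 0.05 in either direction, beside 4.85% higher and 12.6% lower over all genes. Of the fibroblast genes 3 were below all inputs, beside 17.7% of all genes. Macrophages of vessels and meninges appeared in library A, with 646 CPM in sum against 1.76 and 3.69 in B and C and 9.21 to 67.4 in the inputs. Of 7 such genes tested 5 were above 0, with a median of 2.31 (1.34 with lower bounds). DESeq2 called F13a1 higher, as it did 2.73% of all genes. F13a1 was at least 19.9-fold higher on the group mean, and 2.1-fold without library A. In that library the scavenger receptor Stab1 had 305 CPM and the mannose receptor Mrc1 had 171. Red blood cell genes summed to 39.0, 238 and 4.18 CPM against 28.2, 77.2 and 46.5. Ltf, a granule protein of neutrophils, had 283 CPM in library B and 0 in A and C, and the 3 neutrophil genes tested had a median of 3.36.

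**Figure D3:**
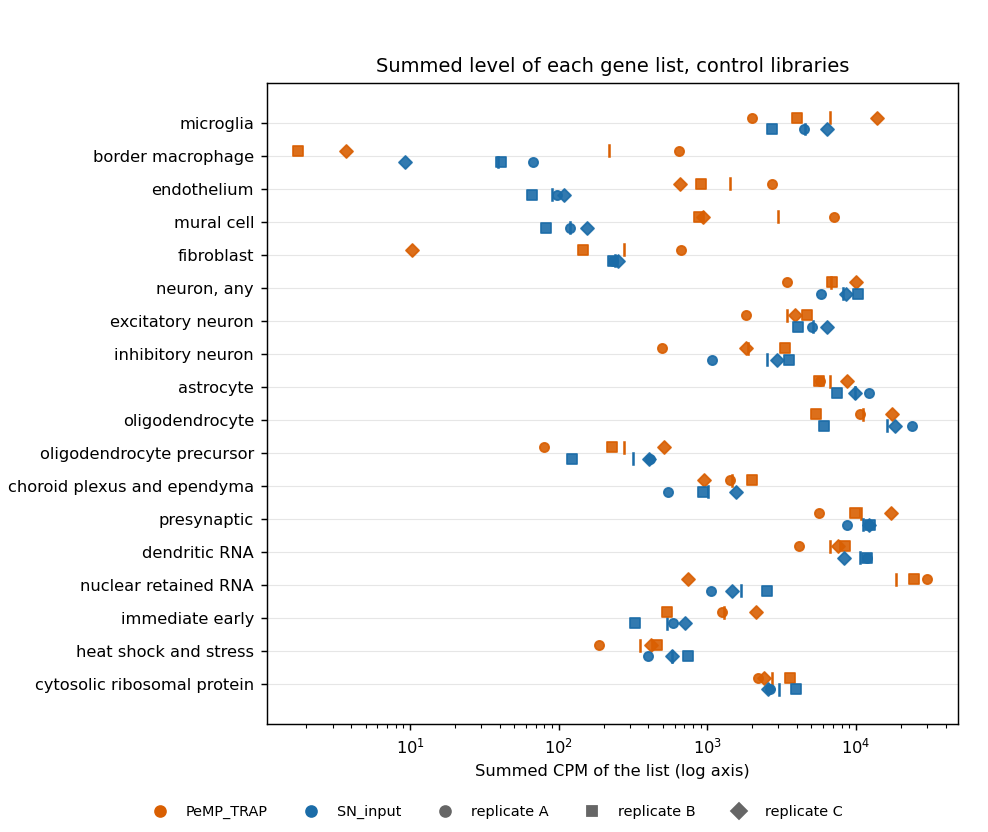
Summed CPM (log axis) of each list of cell type or compartment markers in the 3 control PeMP_TRAP libraries (orange) and the 3 control SN_input libraries (blue); circle, square and diamond are replicates A, B and C, and ticks mark group means. Endothelium (652 to 2723 against 66.0 to 108 CPM) and mural cells (873 to 7077 against 82.3 to 154 CPM) are the cell type lists without overlap.

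Microglia are the cells that the tagged line is meant to mark, and without tamoxifen their summed level in the immunoprecipitate overlapped the input. The microglia list summed to 1987, 4010 and 13885 CPM in PeMP_TRAP A, B and C and to 4452, 2730 and 6322 in SN_input. Library A was below every input and library C above every input. All 25 listed genes were tested, 20 had a log2 fold change above 0, and 2 were higher and 2 lower at an unadjusted p under 0.05, where 4.85% of all genes were higher and 12.6% lower. Their median was 0.77, beside -0.28 over all genes. Without library C 10 of 25 were above 0 and the median was -0.35, beside -0.72 over all genes. With limma voom 11 were above 0 and the median was -0.07, beside -0.93 over all genes. The sign of the list's median thus turned in both, while the median was above that of all genes in all 3 fits.

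Cx3cr1, the fractalkine receptor whose promoter drives the recombinase, had 3.03, 287 and 10.3 CPM in PeMP_TRAP and 109, 60.1 and 72.3 in SN_input (log2 fold change 0.30 ± 1.02 SE, adjusted p = 0.906). Tmem119, a membrane protein of microglia, had 26.8, 49.5 and 1211 CPM against 147, 44 and 135 (1.98 ± 1.09, adjusted p = 0.315). P2ry12, the ADP receptor of resting microglia, had 3.03, 137 and 755 CPM against 72.6, 73.9 and 115 (1.77 ± 1.01, adjusted p = 0.327). Library A was the lowest for all 3 genes, and the highest was B for Cx3cr1 and C for the other two. The complement gene C1qb had 256, 609.7 and 3607 CPM against 685, 323 and 920.1, and the lysosomal protease gene Ctss had 239, 723 and 1874 against 615, 547 and 502. Laptm5, a lysosomal membrane protein of leukocytes, had 413, 322 and 820.2 CPM against 235, 127 and 269 (1.30 ± 0.83, adjusted p = 0.375). It was the only member above the inputs in all 3 libraries, a state of 1.81% of all genes. Without TMM scaling its groups overlap, since PeMP_TRAP B then falls below SN_input C. The 2 members higher at an unadjusted p under 0.05 were Olfml3, at 278, 9.12 and 1078 CPM against 74.7, 60.4 and 121, and Selplg, at 8.65, 259 and 1246 against 158, 80.5 and 118. The 2 lower ones were the transcription factor gene Sall1, at 0, 5.21 and 0.627 CPM against 7.59, 18.8 and 27.4, and P2ry13, at no more than 0.433 CPM against 14.4, 13.2 and 5.76, at least 2.84-fold lower. Both were below the inputs in every library, as were 17.7% of all genes. In bulk RNA, more particles of a cell type and more RNA per particle cannot be told apart, for this list and for the others.

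Neuronal transcripts were present in the background, and their summed level overlapped the input. The list of general neuronal genes summed to 3414, 6852 and 10052 CPM in PeMP_TRAP and 5767, 10341 and 8534 in SN_input. Of its 15 tested genes, 0 reached an unadjusted p under 0.05 in either direction, where 4.85% of all genes were higher and 12.6% lower, and the median log2 fold change was -0.30, beside -0.28 over all genes. Excitatory neuron genes had a median of -0.32 and inhibitory neuron genes of -0.34. Snap25, a membrane fusion protein of nerve endings, had 1043, 1415 and 3813 CPM against 1216, 795 and 1552, and Syt1, the calcium sensor of vesicle release, had 650.3, 4268 and 3219.5 against 1261, 6285 and 2023. Slc17a7, the vesicular glutamate transporter, had 24.2, 896 and 1356 CPM against 860.4, 1142 and 1082, and Sst, a peptide of interneurons, had 139, 3901 and 1103 against 527, 2490.1 and 1340.3. Library A was the lowest immunoprecipitate for all 4. Of 17 presynaptic genes 12 were above 0 with a median of 0.31, and only Stx1a, a syntaxin of the release site, reached an unadjusted p under 0.05, with 57.1, 192 and 1286 CPM against 144, 113 and 121, which is 1 gene of 17 beside 4.85% of all genes. Of 16 transcripts known from dendrites 5 were above 0 with a median of -0.28, and Shank3, a scaffold of the postsynaptic density, was lower at an unadjusted p under 0.05, with 0, 9.12 and 0.941 CPM against 93.5, 105 and 26.9, which is 1 gene of 16 beside 12.6% of all genes.

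The list of immediate early genes, which neurons and glia switch on after stimulation, summed to 1261, 533 and 2108 CPM in PeMP_TRAP and 583, 326 and 701 in SN_input. Of 12 members 9 were above 0, with a median of 1.11. Dusp1, a phosphatase of MAP kinases, had 179, 66.4 and 917 CPM against 50.3, 6.28 and 39.7 (log2 fold change 3.59 ± 1.31 SE, adjusted p = 0.202). Arc, whose RNA also travels into dendrites, had 319, 416 and 822 CPM against 172, 72.7 and 156 (1.96 ± 1.03, adjusted p = 0.302). These 2 were the members with every immunoprecipitate above every input, a state of 1.81% of all genes. Fos, at 259.6, 3.91 and 43.6 CPM against 58.8, 44 and 30.9, overlapped. Fosb had 0 counts in all 3 immunoprecipitates.

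The astrocyte list overlapped the input. It summed to 5694, 5621 and 8712 CPM in PeMP_TRAP and 12243, 7387 and 9878 in SN_input, its 16 genes had a median log2 fold change of -0.08, and 7 were above 0. Slc1a2, the main glutamate transporter, had 1716, 3814 and 2502 CPM against 4823, 4254 and 1684. Sox9, a transcription factor of astrocytes, was the 1 member lower at an unadjusted p under 0.05, with 6.49, 6.51 and 0.627 CPM against 74.7, 35 and 33.3. Of all genes 12.6% were lower at that p. The groups did not overlap for Sox9. The transcripts known from fine astrocyte processes had a median of -0.30, and 3 of the 12, Fabp7, Glul and Sparcl1, were below the inputs in every library, beside 17.7% of all genes.

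The oligodendrocyte list summed to 10659, 5402 and 17412 CPM in PeMP_TRAP and 23908, 6106 and 18320 in SN_input. Its abundant member Mbp, myelin basic protein, had 5877, 1427 and 12641 CPM against 12679, 855 and 5910, with the groups overlapping (log2 fold change 0.04 ± 0.99 SE). Of 16 tested genes, 3 were lower at an unadjusted p under 0.05, where 12.6% of all genes were, and the groups of 5 did not overlap, where 17.7% of all genes were in that state. Ugt8a, the enzyme that makes galactosylceramide of myelin, had 0.865, 7.82 and 0.941 CPM against 99.3, 82.3 and 111 (-5.07 ± 1.57, adjusted p = 0.174), and Ermn, an actin-binding protein of myelinating cells, had 0.433, 5.21 and 9.41 against 37.4, 115 and 76.7 (-3.92 ± 1.37, adjusted p = 0.191). DESeq2 called both lower, and it called 5.10% of all genes lower.

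Of 8 genes of oligodendrocyte precursors, 6 were below 0, 3 were lower at an unadjusted p under 0.05, beside 12.6% of all genes, and 5 were below all inputs, beside 17.7% of all genes. The median log2 fold change was -4.90, or -1.61 with the 5 genes at or under 3 counts in every immunoprecipitate set to their bound. Pdgfra, the PDGF receptor of precursors, had 0, 0 and 0.627 CPM against 3.27, 8.67 and 62.4 (at least 6.34-fold lower, and 1.53-fold without SN_input C). Gpr17, a receptor of cells about to differentiate, had 0, 0 and 0.314 CPM against 26.8, 12.6 and 22.5 (at least 5.28-fold lower). C1ql1 had 0, 3.91 and 0.627 CPM against 59.2, 4.79 and 52 (at least 9.89-fold lower). Bcas1 and Cspg4 went the other way, and Cspg4, the proteoglycan NG2, which pericytes also carry, had 21.6, 35.2 and 194 CPM against 24.3, 17.9 and 3.28. The list sum of 79.5, 228 and 509 CPM therefore overlapped that of the input, 412, 123 and 406.

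Of 10 listed genes of choroid plexus and ependyma, 8 were tested. Of these, 2 were lower at an unadjusted p under 0.05, beside 12.6% of all genes, and 4 were below all inputs, beside 17.7%. The median log2 fold change was -7.42, or 0 with the 7 genes at or under 3 counts in every immunoprecipitate set to their bound. Ttr, transthyretin, which choroid plexus secretes in large amounts, had 1252, 2952 and 1208 CPM in PeMP_TRAP against 502, 1064 and 1176 in SN_input (log2 fold change 0.98 ± 1.07 SE, adjusted p = 0.62). On this scale it was narrowly above the inputs in every library, a state of 1.81% of all genes. The list sum, which is without TMM scaling, overlapped, at 1412, 1995 and 947 CPM against 545, 927 and 1556. Of the 9 other listed genes, 8 had 0 counts in all 3 immunoprecipitates, and the highest input value of any of the 9 was 10.2 CPM. Of the lists of B and plasma cells, T and NK cells and histones, 4 of 8, 1 of 7 and 14 of 67 members were tested. In all, 1 member was at an unadjusted p under 0.05, a B and plasma cell gene that was lower, beside 12.6% of all genes. DESeq2 called Jchain of that list higher, at no more than 0.433 CPM in PeMP_TRAP, beside 2.73% of all genes. The heat shock list had 10 members tested with a median of -0.18, and 1 of 11 small structural noncoding RNAs was tested.

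**Figure D4:**
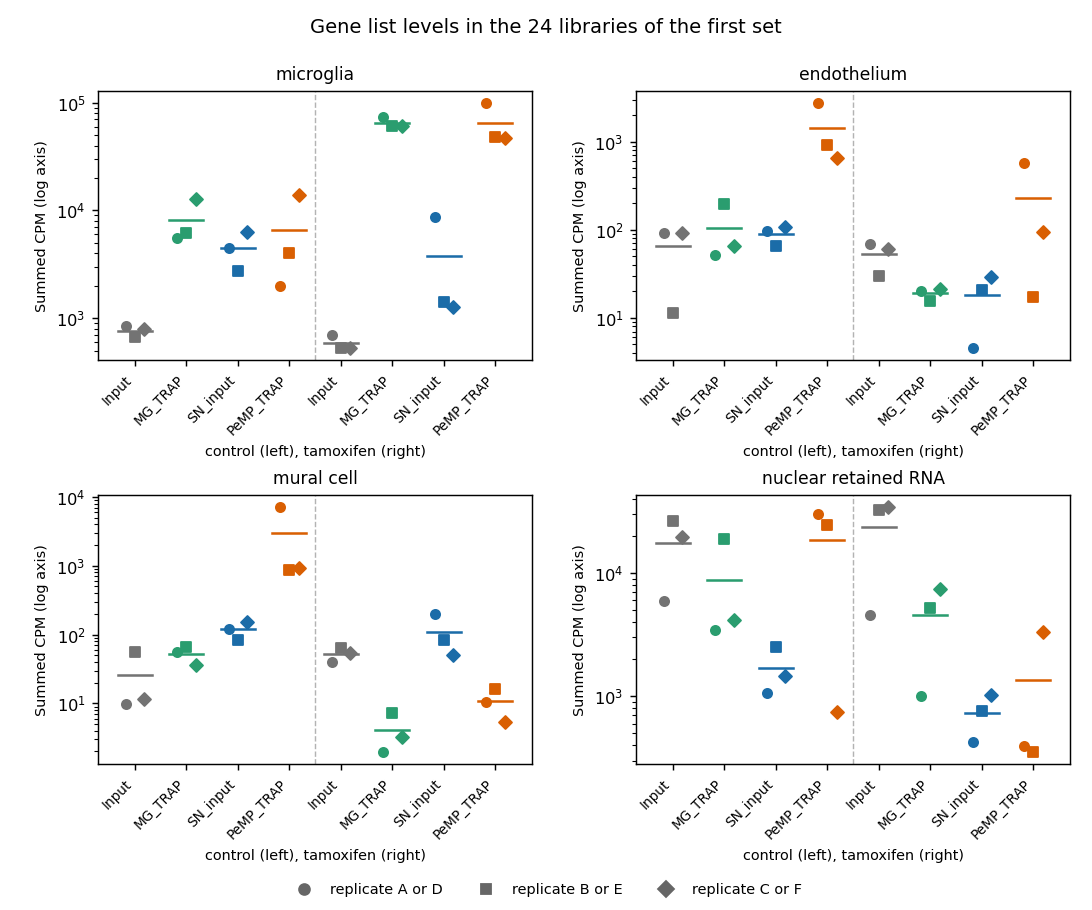
Summed CPM (log axis) of the microglia, endothelium, mural cell and nuclear retained RNA lists in the 24 libraries of the first set, by fraction and treatment; circle, square and diamond are replicates A, B and C of control mice or D, E and F of tamoxifen mice, bars mark group means, and orange is PeMP_TRAP, blue SN_input, green MG_TRAP and grey Input. The mural cell sum is 873 to 7077 CPM in the 3 control PeMP_TRAP libraries and lower in the 21 others.

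The same lists in the other fractions show what the background looked like elsewhere. In the immunoprecipitate of control homogenate (MG_TRAP), the endothelium list summed to 51.5, 194 and 65.9 CPM and the mural list to 56.2, 66.3 and 36.5. In control Input they summed to 92.0, 11.4 and 91.8 and to 9.96, 55.0 and 11.8 CPM. Every one of these values was below the lowest control PeMP_TRAP library, at 652 and 873 CPM. The microglia list summed to 5585, 6116 and 12836 CPM in control MG_TRAP and to 839, 672 and 793 in control Input, so that without tamoxifen every immunoprecipitate of homogenate was above every Input, while the synaptosome pair overlapped. The difference between the fractions was not tested for the list as a whole. Nuclear retained RNA summed to 3456, 18858 and 4171 CPM in MG_TRAP and to 5980, 26665 and 19741 in Input, above the synaptosome input in every library of both. The difference between the synaptosome and whole-homogenate contrasts was tested as an interaction, and 2 of 14832 genes (0.0135%) passed, with 1983 (13.4%) at an unadjusted p under 0.05, 443 of them (2.99%) higher. The count of 2 was 0 without Input A, without Input B, without Input C, with limma voom and on the compared groups only, 1 without SN_input A or PeMP_TRAP A and with RLE scaling, and 446 with DESeq2. Both genes called by edgeR were lower. Syngr2, a vesicle membrane protein, had 0 to 2.61 CPM in control PeMP_TRAP, 20.3 to 69.1 in SN_input, 5.31 to 51.1 in MG_TRAP and 0.198 to 3.07 in Input (log2 difference -10.22 ± 1.91 SE, adjusted p = 0.0273). Arhgap30 had 0 to 2.61 CPM in PeMP_TRAP, 10.95 to 30.8 in SN_input, 10.999 to 66.7 in MG_TRAP and 0.164 to 0.293 in Input (-11.84 ± 2.05, adjusted p = 0.0129). With PeMP_TRAP and Input of both genes at most at a few counts, the fitted sizes depend on the prior count and only the direction is described.

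In tamoxifen mice the synaptosome immunoprecipitate carried microglial RNA at a level that the background did not reach. The microglia list summed to 98781, 48152 and 47189 CPM in replicates D, E and F, and the highest control library, C, had 13885. The mural list summed to 10.5, 16.4 and 5.36 CPM and the endothelium list to 572, 17.2 and 95.1, below the lowest control immunoprecipitate in each case. The interaction test of tamoxifen against control, each as immunoprecipitate against its input, called 183 genes (1.23%), 135 higher (0.910%) and 48 lower (0.324%). At an unadjusted p under 0.05 there were 2937 (19.8%), of which 1579 (10.6%) were higher. This count rested on single libraries: it was 0 without tamoxifen PeMP_TRAP D or without tamoxifen SN_input F, 22 without SN_input E, 33 without SN_input D, 118 without control PeMP_TRAP C, 121 without control SN_input C, and 327 to 566 without control PeMP_TRAP A or B or tamoxifen PeMP_TRAP E or F. Of the 135 higher calls, 102 were genes at or under 3 counts in every control immunoprecipitate. Of 25 microglia genes 24 had a log2 difference above 0 and 2 were called, Csf1r and P2ry13, with a median difference of 3.13 beside 0.24 over all genes. The median difference was -8.44 for mural, -4.89 for endothelial and -4.07 for nuclear retained genes. Vim had 0.417, 0 and 9.64 CPM in tamoxifen PeMP_TRAP against 937, 188 and 274 in control (log2 difference -9.16 ± 2.32 SE, adjusted p = 0.0429), and Cald1 had 0.556, 1.95 and 2.41 against 698, 657 and 46.7 (-8.70 ± 2.12, adjusted p = 0.0422). Both were thus lower in every tamoxifen immunoprecipitate than in any control one. These differences share the control libraries with the comparison above and are no separate evidence for it. Because immunoprecipitated microglial RNA takes up reads in tamoxifen libraries, a lower share of a background transcript there and less of it cannot be told apart.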

How the data were processed

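Reads per Ensembl gene were taken as the whole-number counts that the authors deposited for each library, with cDNA from the SMART-Seq v4 kit and adaptors from NEBNext Ultra II, per the labels' protocols. The submitters' processing notes name FastQC 0.11.7, Trimmomatic 0.38, Bowtie2 2.3.5, STAR 2.7.0d, HTSeq 0.9.1 and edgeR. Their roles, the genome build, the strand setting and the counting options are not given in the sources used here. Symbols, coordinates and RNA classes came from GENCODE M21 (GRCm38), which holds 54079 of the 54146 identifiers. Rows that name no gene (no feature, ambiguous, not aligned, not unique) were kept out of library sizes, and their shares are given where used. The deposited table of the authors' comparisons and the second set of 20 libraries, which has no controls, were not used. PeMP_TRAP libraries held 1135747 to 4069563 assigned reads and SN_input libraries 3922657 to 9664824. A floor of 3 counts covers counting error only, since PCR copies cannot be told from separate molecules here.

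All 24 libraries of the first set were fitted with edgeR 4.0.16 in R 4.3.3 (a mean per group, TMM scaling, filterByExpr with a minimum count of 10, quasi-likelihood test, Benjamini-Hochberg adjustment over all 14832 genes, threshold 0.05), because 3 against 3 leaves few degrees of freedom. The contrasts were PeMP_TRAP against SN_input in controls, its difference from the same contrast in tamoxifen mice, and its difference from MG_TRAP against Input. Shares were compared by exact permutation tests. Summed levels use CPM by assigned reads and single genes TMM-scaled CPM, neither corrected for transcript length. A lower bound of a fold sets the mean of one group against 3 counts in the shallowest library of the other. The members and the 26 gene lists were chosen with earlier results of these data known, so no list was tested as a set. Genes were named by a rule: Cx3cr1, Rpl10a, Tmem119 and P2ry12; the 5 of lowest p in each direction with an average log2 CPM of at least 4 and no overlap of the groups; the most abundant genes of a library group, list or class; and genes past the threshold. Further list members are named after their values were seen. Alternatives were RLE and total count scaling, no filter, DESeq2 1.42.0, limma 3.58.1 voom, fits without mitochondrially encoded genes, on shared identifiers, on the compared groups only or on thinned counts, a replicate block, and leaving out each library. The scripts were tested on simulated data with known changes.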

Additional observations from a re-analysis of the deposited data

Results flagged for a closer look

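The following differences between groups passed a test of the difference itself, in which the immunoprecipitate against its input was set in tamoxifen mice beside control mice, or in the synaptosome fraction beside whole homogenate. They are given as values, and each rests on the same 6 control libraries.

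The tamoxifen and control contrasts differed for 183 genes. Csf1r, the receptor that keeps microglia alive, had a log2 difference of 5.42 ± 1.36 SE (adjusted p = 0.0429): its level was 14.7, 116 and 289 CPM in control PeMP_TRAP A, B and C and 5492, 3107 and 1469 CPM in tamoxifen PeMP_TRAP D, E and F. P2ry13, a purine receptor of microglia, had a fitted difference of 9.10 (adjusted p = 0.0422), with no more than 1 count in any control PeMP_TRAP library and 50.5, 113 and 124 CPM with tamoxifen. Among other genes that were higher with tamoxifen, Ptgs1, a cyclooxygenase, had a difference of 6.60 ± 1.62 SE, with 1.3, 33.9 and 12.2 CPM in control PeMP_TRAP and 803, 406 and 377 with tamoxifen. Anxa3, an annexin, had a difference of 6.8 ± 1.54, with 1.3, 57.3 and 36.7 CPM against 1567, 108 and 365. Cnpy3, a chaperone of Toll-like receptors, had a difference of 7.17 ± 1.78, with 0.865, 18.2 and 0.941 CPM against 685, 111 and 107. Igkc, the kappa light chain of antibodies, had a fitted difference of 13.75 (adjusted p = 0.0422), with 0, 1.3 and 0 CPM in control and 82.1, 1.95 and 2643 CPM with tamoxifen, so that its level lay mostly in replicate F.

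Among genes that were lower with tamoxifen, Acta2 had a fitted difference of -11.07 (adjusted p = 0.0429), with 3395, 6.51 and 0 CPM in control PeMP_TRAP and 0.417, 1.3 and 1.21 CPM with tamoxifen. Aebp1, a protein of the extracellular matrix, had a fitted difference of -13.20 (adjusted p = 0.0466), with 96.9, 117 and 9.72 CPM in control PeMP_TRAP and 0 in all 3 tamoxifen libraries. Ust, a sulfotransferase, had -12.36, with 125, 257 and 0.941 CPM against 0 in all 3. Lrfn5, an adhesion molecule of synapses, had -10.16 ± 2.20 SE, with 525, 41.7 and 347 CPM against 0.278, 1.95 and 0. Where 1 group had a few counts or none, the fitted size depends on the prior count and is no bound.

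The synaptosome and whole-homogenate contrasts of control mice differed for 2 genes, Syngr2 at -10.22 ± 1.91 and Arhgap30 at -11.84 ± 2.05. Neither was called on thinned counts or with a replicate block.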

How the results depend on the processing

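With 3 shallow and uneven immunoprecipitates, depth limits every statement on genes under a few CPM, and a gene that missed the threshold is not shown to be equal. The control comparison called 0 genes under RLE scaling, on shared identifiers, on the compared groups only and on thinned counts. It called 1 with total counts, 17 without the filter (14 higher, 3 lower), 1161 with DESeq2, 31 with limma voom, 1 without mitochondrially encoded genes, and 0 to 2 with single libraries left out. The tamoxifen minus control difference called 183 genes, and 308 with total counts (277 higher, 31 lower, against 135 and 48), 551 without the filter, 1771 with DESeq2, 273 with limma voom, 338 without mitochondrially encoded genes, 3 on the compared groups only, 9 on thinned counts, and 0 to 566 with single libraries left out. The synaptosome minus whole difference called 2 genes, and 1 with RLE scaling, 5 with total counts, 59 without the filter, 446 with DESeq2, 0 with limma voom, 0 on the compared groups only, 1 on thinned counts, and 0 to 3 with single libraries left out. The 1 gene on thinned counts was neither of the 2. Smaller counts on the compared groups come with fewer libraries in the fit. For the other changes the cause was not tested.

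Same-letter libraries of the 2 groups deviated together only weakly (r = 0.0278, 0.105 and 0.0541 for A, B and C), so the letters were not taken to pair them, although each library correlated best with its own letter. A fit with the replicate block called 2 genes in the control comparison (mt-Rnr2 at -1.84 and Gm26917 at 7.02 on the log2 scale). It called 23 in the tamoxifen minus control difference, of which 11 were among the 183 of the main fit. In the synaptosome minus whole difference it called 1 gene, which was neither Syngr2 nor Arhgap30.

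Over 16 settings, 7 (of 7 tested) to 12 (of 13) endothelial and 4 (of 4) to 8 (of 10) mural genes had a fold above 0, as did 6 to 11 nuclear retained and 10 to 20 microglia genes. Over 22 settings of the tamoxifen minus control difference, 24 to 25 microglia genes and 0 mural genes were above 0. The difference in genes detected at equal depth was -3712, and -4467 to -2736 with single libraries left out. In the tamoxifen minus control difference 14 genes were followed through the alternatives, and in the synaptosome minus whole difference both called genes. The 14 include Cx3cr1, Rpl10a, Tmem119 and P2ry12, which were not called. None of the followed genes changed direction, but 87 of 305 and 18 of 44 values no longer passed the threshold. The 305 include the values of the uncalled genes, which could not lose a call, and 2 of those values passed. Of 634 values of 41 uncalled genes in the control comparison, 25 had the other direction.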

Other observations

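The genes tested in the control comparison were split into quintiles by the annotated length of their transcript. The median log2 fold change of PeMP_TRAP against SN_input was -0.50 in the quintile of the shortest transcripts (up to 1752 bases), -0.34, -0.36 and -0.33 in the next ones, and 0.04 in that of the longest (5197 bases and more). The numbers of genes higher at an unadjusted p under 0.05 were 100, 151, 146, 172 and 150 in the same order, and of genes lower 318, 423, 436, 385 and 302. In PeMP_TRAP C alone the order ran the other way: the median deviation of its genes from the input was -1.14 for the shortest and -2.47 for the longest transcripts, whereas it was -1.30 and -0.94 in A. By GC content of the transcript, the median was -0.41 in the lowest quintile and 0.00 in the highest. Genes are not independent replicates, so these medians are descriptions.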
